A study of Mus musculus with 12 samples.

Results

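The genes of the major histocompatibility complex (MHC) and their partners in antigen presentation were examined in whole liver of mouse fetuses that lacked, or did not lack, the histone variants macroH2A1 and macroH2A2. Members were all probe sets whose gene symbol in the platform table began with H2-, together with those of B2m, Tap1, Tap2, Tapbp, Nlrc5, Cd74 and Ciita. A probe set is the group of array probes that gives 1 value for a transcript. This gave 64 of 28815 probe sets, which named 51 symbols. They were 27 class I heavy chain probe sets, 9 of class II molecules, 25 of class I helpers and their regulator, 2 of the class II helper and regulator, and 1 of H2-Ke6, a hydroxysteroid dehydrogenase gene that lies in the complex but encodes no MHC molecule. Of the 64, 10 named more than 1 gene, and 19 belonged to Nlrc5 alone, so probe sets were not independent of each other.

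The livers came from fetuses of strain 129/S6 (taconic), all labelled male, at 18.5 days post coitum. There were 6 wild-type and 6 macroH2A1 macroH2A2 double-knockout samples, from fetuses grown from embryos of both genotypes that were mixed and carried by wild-type females. No treatment was applied, and the labels do not say how the alleles were made or which fetuses shared a female. The labels do not state that each array was a separate fetus, so p-values measure only the spread between these 12 samples, which may be technical. Of the 42 H2- symbols, 41 were found in the GRCm38.p6 annotation, all on mouse chromosome 17, and H2-T9 was not matched there.

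MHC class I molecules show peptides made inside the cell to CD8+ T cells. A heavy chain pairs with beta-2 microglobulin, receives its peptide from the transporter formed by Tap1 and Tap2 with the help of tapasin (Tapbp), and is switched on by Nlrc5 and by interferon. MHC class II molecules show peptides from ingested material to CD4+ T cells and are made mainly by B cells, dendritic cells and macrophages, under the control of Ciita, with Cd74 (the invariant chain) as their chaperone. Hepatocytes make class I but little class II, and fetal liver is also a site of blood formation. In whole liver, fewer cells of a type and less RNA per cell cannot be told apart.

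The sequences below are stretches upstream of the transcription starts of members described here, shown because class I and class II genes are known to be read from different arrangements of short control elements. They are RefSeq sequences of build GRCm38.p6, which is the C57BL/6J genome, so strain 129/S6 may differ at single bases. Windows of 300 bases, of which 50 follow the start, were given for 34 of the 49 MHC and helper symbols. Capitals mark the letters GGGATTCCC (the kappa B site of class I enhancer A), TTTCNNTTC or TTCNNTTTC (forms of the interferon response element), AACNGATG (the core of the class II X1 box), TGACG (X2) and GATTGG (the Y box), on either strand. The forms of the interferon element share most of their letters, and TGACGTCA in H2-Aa is a pair of overlapping X2 matches. The letters were chosen after the sequences had been read, and longer and looser forms of the kappa B, interferon and X1 letters were also searched before these were kept. The class I stretches and that of B2m are these:
H2-K1, chr17:34000334-34000473, - strand: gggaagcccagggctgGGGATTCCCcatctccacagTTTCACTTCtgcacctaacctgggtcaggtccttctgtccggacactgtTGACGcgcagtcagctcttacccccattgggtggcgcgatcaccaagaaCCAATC
H2-D1, chr17:35262919-35263058, + strand: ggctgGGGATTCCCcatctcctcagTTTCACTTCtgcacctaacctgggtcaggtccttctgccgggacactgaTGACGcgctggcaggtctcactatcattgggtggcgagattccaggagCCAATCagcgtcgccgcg
H2-Q6, chr17:35424675-35424814, + strand: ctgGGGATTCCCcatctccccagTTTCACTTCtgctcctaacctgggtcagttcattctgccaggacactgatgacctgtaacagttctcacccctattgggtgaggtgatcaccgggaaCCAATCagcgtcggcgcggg
H2-Q10, chr17:35469914-35470053, + strand: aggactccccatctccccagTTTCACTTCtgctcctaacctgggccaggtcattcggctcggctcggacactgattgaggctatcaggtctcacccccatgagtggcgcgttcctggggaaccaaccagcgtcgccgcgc
H2-T22, chr17:36042803-36042942, - strand: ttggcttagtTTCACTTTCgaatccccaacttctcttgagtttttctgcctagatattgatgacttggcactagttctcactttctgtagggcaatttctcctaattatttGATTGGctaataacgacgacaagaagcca
B2m, chr2:122147537-122147656, + strand: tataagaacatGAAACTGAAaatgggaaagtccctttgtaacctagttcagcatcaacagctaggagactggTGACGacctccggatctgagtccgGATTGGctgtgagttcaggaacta

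The class II stretches, in which the X1 core or X2 letters stand upstream of the Y box, are these:
H2-Aa, chr17:34287859-34287928, - strand: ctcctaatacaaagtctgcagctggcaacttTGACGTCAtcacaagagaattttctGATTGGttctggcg
H2-Eb1, chr17:34305762-34305831, + strand: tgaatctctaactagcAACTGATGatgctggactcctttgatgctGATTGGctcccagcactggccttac
H2-Eb2, chr17:34325530-34325599, + strand: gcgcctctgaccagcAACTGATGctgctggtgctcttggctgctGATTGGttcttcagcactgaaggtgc
H2-DMb1, chr17:34153086-34153155, + strand: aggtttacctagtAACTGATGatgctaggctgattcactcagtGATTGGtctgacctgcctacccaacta

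The Y box letters were found in all 8 class II symbols and in 16 of 22 class I symbols with a window, against 16.1% of all 32851 windows. GGGATTCCC was found in H2-K1, H2-D1 and H2-Q6 and in 0.353% of all windows. TTTCNNTTC was found in 7 of 22 class I symbols (H2-K1, H2-D1, H2-Q4, H2-Q6, H2-Q10, H2-M2 and H2-M3), in 0 of 8 class II symbols and in 7.52% of all windows. TTCNNTTTC was found in H2-T22, H2-T23 and B2m and in 8.56% of windows. AACNGATG was found in 4 of 8 class II symbols (H2-Eb1, H2-Eb2, H2-DMb1 and H2-DMb2), in 1 of 22 class I symbols and in 2.32% of windows, and TGACG in 10 of 22 class I symbols, in H2-Aa, B2m and Tap1 and in 20.8% of windows. H2-Q10 held the interferon element but not the kappa B or Y box letters in its window. A symbol was counted if any of its windows held the letters, whereas the percentages are shares of single windows, so they are not like units. A match describes the letters only.

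Over all genes on the array, 2 probe sets, or 0.00694%, passed the threshold of a limma adjusted p under 0.05, both lower in the double knockout. Macroh2a1 measured 10.14 to 10.52 on wild-type arrays and 9.52 to 9.67 on double-knockout arrays (log2 values; limma adjusted p = 0.00017), while Macroh2a2 measured 9.09 to 9.52 and 8.71 to 9.58 (limma adjusted p = 0.999). Macroh2a1 thus separated the genotypes and Macroh2a2 did not, and the sources used here do not say where the Macroh2a2 probes lie relative to the deletion. The tissue label was checked against 12 measured hepatocyte markers, whose mean was 12.96 to 13.29 on every array. The 4 arrays of smallest interquartile range over all probe sets, called narrow here, were double-knockout replicate 5 (2.77), wild-type replicate 6 (2.81) and double-knockout replicates 6 (2.81) and 3 (2.89), against 2.92 to 3.02 on the other 8. Double-knockout replicate 3 lay closer to those 8 than to the other 3 narrow arrays. Wild-type replicate 6 also had the highest mean of intestine markers (7.97, against 7.01 to 7.27 on the others), and exocrine pancreas markers ranged from 7.30 to 10.34 over arrays. Between genotypes, 13 of 13 pancreas markers had the higher mean in the double knockout (median difference 0.59), and 10 of 13 intestine and 11 of 12 hepatocyte markers the lower one (medians -0.08 and -0.02), none past the threshold; their part in the values of MHC genes was not tested. Over all probe sets 40.7% had the lower mean in the double knockout. Without the 4 narrow arrays, which leaves 5 wild-type and 3 double-knockout arrays, the signs of 28 of 64 members turned, 16 of them among the 45 that were not Nlrc5. With double-knockout replicate 3 kept, 12 turned, 6 of them among the 45. The share of all probe sets whose sign turned was not counted, so these counts have no background beside them.

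No member probe set passed the threshold. At an unadjusted limma p under 0.05 there were 7 of 64 members, all with lower means in the double knockout (H2-Q5, H2-Q10, the H2-Q6 and H2-Q8 probe set, the H2-T9, H2-T22 and H2-T10 probe set, 1 of the H2-K1 and H2-D1 probe sets, Tap1 and Cd74). Among all probe sets 3.89% reached that p, 1.13% lower and 2.76% higher in the double knockout. Lower means were found for 39 of 64 members, and for 30 of the 45 that were not Nlrc5, against 40.7% of all probe sets. The median log2 difference, double knockout minus wild type, was -0.02 over the 64 members and 0.01 over all probe sets. No member differed by more than 0.34 on the log2 scale, and the 95% interval of 63 of 64 lay within 0.5 of 0 on both sides. Without the 4 narrow arrays 37 of 64 members were lower, with a median of -0.0072, and 4 had an unadjusted limma p under 0.05, all lower, against 2.18% of all probe sets lower and 4.90% higher in that fit.

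**Figure D1:**
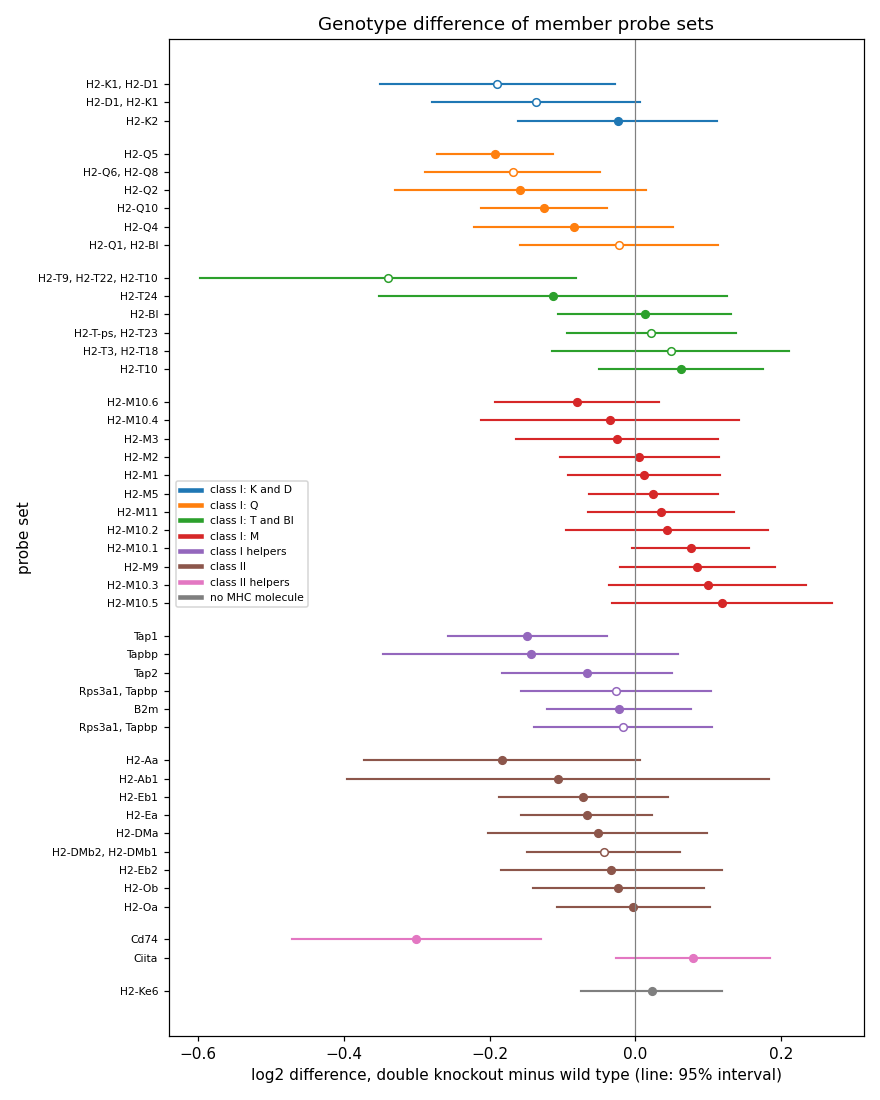
The log2 difference, double knockout minus wild type, is plotted on the horizontal axis for the 45 member probe sets other than those of Nlrc5, with 95% limma intervals as lines and colours by class. Open circles are probe sets that name several genes. All K, D, Q and class II probe sets lie left of 0, and the M probe sets lie on both sides, from -0.08 to 0.12.

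Among class I heavy chains, the probe sets of the K, D and Q genes had lower means in the double knockout. Those of the M genes had mostly higher ones, as did most probe sets of the whole table. All 9 K, D and Q probe sets were lower (median difference -0.14 for both the 3 of K and D and the 6 of Q). Of the 12 M probe sets 9 were higher, with a median of 0.03, and of the 6 of the T genes and H2-Bl 4 were higher, with a median of 0.02. For all 27 the counts were 14 lower and 13 higher, with a median of -0.02. Without the 4 narrow arrays 6 of the 9 K, D and Q probe sets were lower (median -0.04), and of the M probe sets 7 were lower and 5 higher (median -0.0032). With double-knockout replicate 3 kept, 8 of the 9 were lower, and of the M probe sets 5 were lower and 7 higher. The split by gene letter was made after the values were seen. Of the 9 K, D and Q probe sets 4 name several genes, and probe sequences were not compared. They cannot be taken as 9 separate measurements.

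H2-Q5 was the member of smallest p. It is a class I gene that the GRCm38.p6 annotation lists as a transcribed pseudogene. Its log2 values had a lowest, median and highest of 8.10, 8.21 and 8.27 in wild type and 7.97, 8.01 and 8.07 in the double knockout. Every double-knockout array thus lay below every wild-type array. H2-Q5 was the only member of the 64 of which this was true, and over all probe sets it held for 0.0902% in this direction and 0.118% in the other. The means were 8.20 ± 0.06 and 8.01 ± 0.04 (SD, n = 6 each), which differ by -0.19 on the log2 scale (standard error 0.04), that is 1.14-fold (limma unadjusted p = 0.00016, adjusted p = 0.41). The adjusted p ran from 0.23 to 0.9999 over 23 alternatives. The log2 difference was -0.18 without the 4 narrow arrays (limma unadjusted p = 0.0051, adjusted p = 0.56). For this gene double-knockout replicates 3, 5 and 6, at 7.98, 8.01 and 8.04, lay within the range of the other double-knockout arrays.

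The H2-Q6 and H2-Q8 probe set, of genes in the Qa-2 group of non-classical class I, had a lowest, median and highest of 8.83, 8.91 and 9.11 in wild type and 8.62, 8.78 and 8.87 in the double knockout. In 4 of 6 double-knockout arrays it was below all wild-type arrays. The genotypes differed by -0.17 in log2 value (standard error 0.06) (limma unadjusted p = 0.0095, adjusted p = 0.999), and -0.24 without the 4 narrow arrays. H2-Q10, which encodes a class I molecule that the liver secretes into serum, had a lowest, median and highest of 9.62, 9.71 and 9.77 in wild type and 9.50, 9.57 and 9.68 in the double knockout. The groups overlapped through 1 double-knockout array, replicate 4. H2-Q10 differed by -0.13 in log2 value (standard error 0.04) (limma unadjusted p = 0.0079, adjusted p = 0.999), and -0.09 without the 4 narrow arrays.

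In H2-Q2, 4 of 6 double-knockout arrays lay below all wild-type arrays, as in the H2-Q6 and H2-Q8 probe set. H2-Q2 differed by -0.16 on the log2 scale (95% interval -0.33 to 0.01), and its wild-type replicate 6 was high at 7.61, against 7.10 to 7.30 on the other wild-type arrays. H2-Q4 differed by -0.08 (95% interval from limma -0.22 to 0.05) and the H2-Q1 and H2-Bl probe set by -0.02. H2-Q2 differed by -0.04 and H2-Q4 by 0.01 without the 4 narrow arrays. Of the 6 Q probe sets, H2-Q4 was thus the 1 whose mean difference changed sign without those arrays.

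The classical heavy chains H2-K1 and H2-D1, the main peptide-presenting class I molecules, could not be measured apart. Both of their probe sets list H2-K1, H2-D1 and LOC547349. The promoter stretches of H2-K1 and H2-D1 printed above hold the same capital letters in the same order, which does not bear on the probes. The probe set with H2-K1 listed first measured 10.60, 10.68, 10.67, 10.76, 10.58 and 10.65 on wild-type replicates 1 to 6. It measured 10.62, 10.63, 10.28, 10.65, 10.26 and 10.37 on double-knockout replicates 1 to 6. Double-knockout replicates 3, 5 and 6, which are 3 of the narrow arrays, were below every wild-type array, while replicates 1, 2 and 4 lay within the wild-type range; the narrow wild-type array, replicate 6, was near the wild-type median. The genotype means differed by -0.19 in log2 value (standard error 0.07) (limma unadjusted p = 0.0245, adjusted p = 0.999).

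The probe set with H2-D1 listed first had a lowest, median and highest of 10.63, 10.69 and 10.84 in wild type and 10.38, 10.59 and 10.73 in the double knockout. The same 3 double-knockout arrays were below all wild-type arrays, at 10.51, 10.38 and 10.42. Its log2 difference was -0.14 (95% interval -0.28 to 0.01; limma unadjusted p = 0.060, adjusted p = 0.999). The differences without the 4 narrow arrays were -0.02 for the probe set with H2-K1 first and 0.03 for the other, and with double-knockout replicate 3 kept they were -0.11 and -0.02. H2-K2, a transcribed pseudogene in GRCm38.p6, differed by -0.02, and by 0.10 without the narrow arrays.

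**Figure D2:**
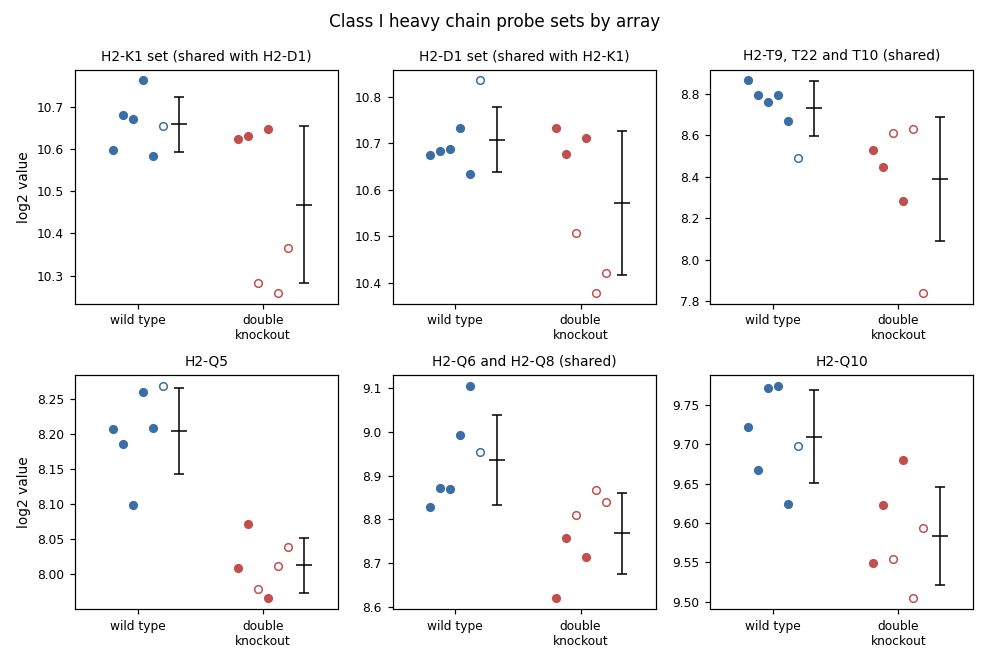
Each point is the log2 value of a class I probe set on 1 array, for 6 wild-type and 6 double-knockout arrays, with the mean and SD as a bar; open circles are the 4 arrays of narrow spread. H2-Q5 shows no overlap between genotypes, whereas in both H2-K1 and H2-D1 probe sets only the 3 open double-knockout circles lie below the wild-type range.

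The probe set shared by H2-T9, H2-T22 and H2-T10 had the largest absolute difference of the 64 members. H2-T22 encodes a non-classical molecule recognised by a subset of gamma delta T cells, and H2-T10 is a transcribed pseudogene in GRCm38.p6. Its log2 values had a lowest, median and highest of 8.49, 8.78 and 8.86 in wild type and 7.84, 8.49 and 8.63 in the double knockout. Double-knockout replicate 6 at 7.84 and replicate 4 at 8.28 were the lowest arrays, and 3 of 6 double-knockout arrays lay below all of wild type. The difference of means was -0.34 on the log2 scale (standard error 0.12), that is 1.27-fold (limma unadjusted p = 0.014, adjusted p = 0.999). It was -0.23 without double-knockout replicate 6 and -0.36 without the 4 narrow arrays (limma unadjusted p = 0.00033, adjusted p = 0.50). That was the smallest p of a member without those arrays. A separate probe set that names H2-T10 alone differed by 0.06, so the probe sets that name H2-T10 had mean differences of opposite sign.

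The other T genes showed smaller differences. The probe set of H2-T-ps and H2-T23, of which H2-T23 encodes Qa-1, a ligand of NKG2 receptors, differed by 0.02 on the log2 scale (95% interval -0.09 to 0.14). That of H2-T3 and H2-T18, which carry the thymus leukaemia antigen, differed by 0.05. H2-T24 differed by -0.11 (95% interval -0.35 to 0.13), with double-knockout arrays from 9.28 on replicate 5 to 10.10 on replicate 4, and by 0.09 without the 4 narrow arrays. These double-knockout values of H2-T24 spanned a wider range than the wild-type ones, 9.74 to 10.01. H2-Bl, a transcribed pseudogene in GRCm38.p6, differed by 0.01.

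Of the M genes, H2-M3 presents formylated peptides of bacteria and mitochondria, and the H2-M10 genes are known from vomeronasal neurons. H2-M3 measured 7.38 to 7.70 in wild type and 7.37 to 7.62 in the double knockout, a log2 difference of -0.03 (95% interval -0.16 to 0.11). H2-M10.1 differed by 0.08, H2-M10.2 by 0.04, H2-M10.3 by 0.10, H2-M10.4 by -0.03, H2-M10.5 by 0.12 and H2-M10.6 by -0.08. The signs of H2-M3 (0.04), H2-M10.2 (-0.05) and H2-M10.3 (-0.0086) turned without the 4 narrow arrays, as did those of H2-M1, H2-M2 and H2-M11. The remaining 5, H2-M1, H2-M2, H2-M5, H2-M9 and H2-M11, differed by 0.01 to 0.08. None of the 12 M probe sets had a mean above the median mean of the table, and a low value on these arrays cannot be separated from background here. The mean of the M probe sets was highest on double-knockout replicate 5, at 6.01, and double-knockout replicates 3, 5 and 6 were above every wild-type array.

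The partners of class I heavy chains differed among themselves. B2m, which encodes the light chain of every class I molecule, had a lowest, median and highest of 13.01, 13.05 and 13.23 in wild type and 13.01, 13.05 and 13.17 in the double knockout. Its groups overlapped across nearly their whole range, and the log2 difference was -0.02 with a 95% interval of -0.12 to 0.08 (limma adjusted p = 0.999). Tap1, a subunit of the peptide transporter, had a lowest, median and highest of 7.90, 8.05 and 8.11 in wild type and 7.74, 7.87 and 8.01 in the double knockout. In 4 of 6 double-knockout arrays Tap1 lay below all of wild type. The genotypes differed by -0.15 in log2 value (standard error 0.05) (limma unadjusted p = 0.012, adjusted p = 0.999), and -0.06 without the 4 narrow arrays.

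Tap2, the other transporter subunit, differed by -0.07 (95% interval -0.18 to 0.05), with 8.08 to 8.27 in wild type and 7.93 to 8.27 in the double knockout. Tapbp, which encodes tapasin, measured 9.54 to 9.96 and 9.23 to 9.80 in its own probe set, a log2 difference of -0.14 (95% interval -0.35 to 0.06). Tap2 differed by 0.02 and Tapbp by -0.0016 without the 4 narrow arrays. A further 2 probe sets name Tapbp together with Rps3a1, which encodes a ribosomal protein, and differed by -0.03 and -0.02. In both of them wild-type replicate 3 was the highest wild-type array, as it was in the probe set of Rps3a1 alone (10.26), while the highest wild-type array of Tapbp alone was replicate 1. Over all arrays, Rps3a1 alone measured 10.05 to 10.26 in wild type and 10.09 to 10.34 in the double knockout. Its highest array was double-knockout replicate 3, whereas that of both shared probe sets was wild-type replicate 3. Which gene the shared probe sets measure was not tested. Because they name both genes, they were not read as tapasin alone.

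Nlrc5, the class I transactivator, was measured by 19 probe sets that name Nlrc5 alone. Their differences ran from -0.15 to 0.08 on the log2 scale, 9 lower and 10 higher, with a median of 0.0022, and 0 had an unadjusted limma p under 0.05. The probe set of highest mean measured 10.11 to 10.54 in wild type and 10.08 to 10.51 in the double knockout. The groups coincided there, with a log2 difference of 0.01 (95% interval -0.17 to 0.18). The mean over the 19 was 7.18 to 7.29 on wild-type arrays and 7.14 to 7.29 on double-knockout arrays.

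The level of K, D and Q probe sets was set beside that of interferon response genes, since interferon is a known inducer of class I. The array mean of the 9 K, D and Q probe sets was 8.67 to 8.77 in wild type. In the double knockout it was 8.62, 8.67, 8.53, 8.61, 8.51 and 8.53 on replicates 1 to 6, with 5 of 6 below every wild-type array. The double-knockout mean was the lower for 22 of 23 measured interferon response genes (median difference -0.14); 3 had an unadjusted limma p under 0.05 and 0 passed the threshold. Over all probe sets 40.7% had the lower mean, and 1.13% were lower at an unadjusted limma p under 0.05. Psmb8, Psmb9 and Stat2 of the interferon list are also counted among the pathway genes. The array mean of the 23 was 8.24 to 8.58 in wild type and 8.44, 8.36, 7.99, 8.50, 7.88 and 8.18 in the double knockout. Double-knockout replicates 3, 5 and 6 were the 3 lowest of the 12 arrays in both measures. For interferon genes, replicates 1, 2 and 4 lay within the wild-type range, while for K, D and Q replicates 1 and 4 lay below it and replicate 2 at its lower end. Without the 4 narrow arrays 6 of the 23 interferon genes were lower and 17 higher, with a median of 0.14, while 6 of the 9 K, D and Q probe sets were lower. With double-knockout replicate 3 kept, 11 interferon genes were lower and 12 higher. The part of interferon genes and of array spread in the class I values was not tested.

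**Figure D3:**
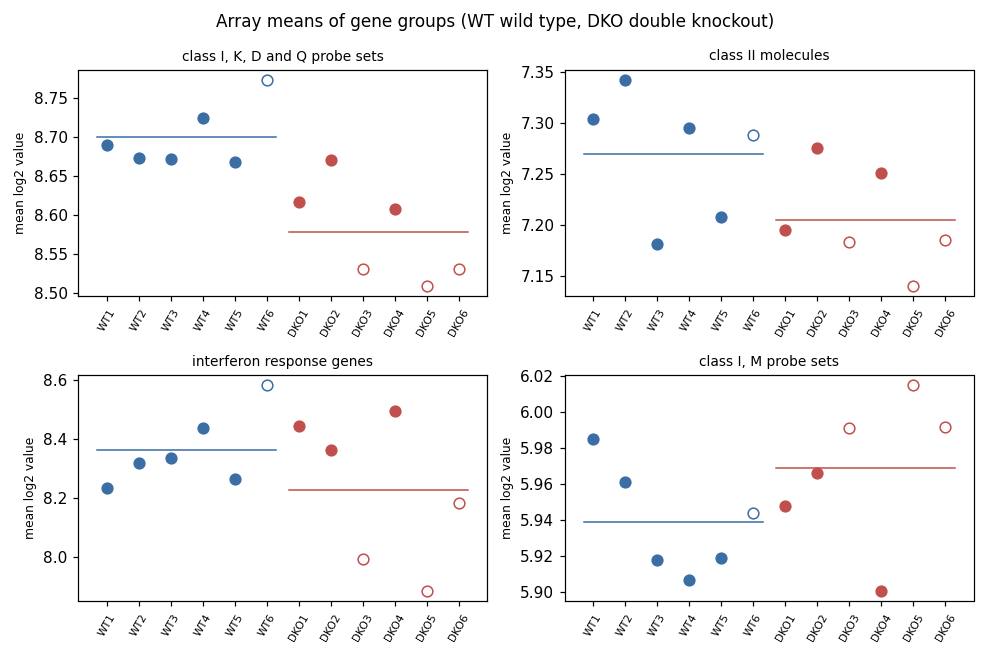
Mean log2 values per array are plotted for the K, D and Q class I probe sets, the class II molecules, 23 interferon response genes and the M class I probe sets; open circles are the 4 narrow arrays and lines are genotype means. Double-knockout replicates 3, 5 and 6 are lowest for K, D and Q (8.51 to 8.53) and for interferon genes (7.88 to 8.18), and highest for M (5.99 to 6.01).

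All 9 probe sets of class II molecules had lower means in the double knockout, against 40.7% of all probe sets. In each the difference was smaller than the wild-type SD. For H2-Aa (-0.18) and H2-Ea (-0.067) it was larger than the double-knockout SD (0.13 and 0.058). The median log2 difference of the 9 was -0.05, against 0.01 over all probe sets. Of the 9, 0 had an unadjusted limma p under 0.05 and 0 passed the threshold. The array mean of the 9 was 7.18 to 7.34 in wild type and 7.14 to 7.28 in the double knockout, so the groups overlapped. Without the 4 narrow arrays 5 of 9 were lower and 4 higher, with a median of -0.03, and with double-knockout replicate 3 kept 7 of 9 were lower.

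H2-Aa and H2-Ab1 encode the alpha and beta chains of the I-A molecule. H2-Aa had a lowest, median and highest of 7.77, 8.06 and 8.29 in wild type and 7.69, 7.88 and 8.04 in the double knockout. Only 2 of 6 double-knockout arrays were below all of wild type, in which replicate 3 was low. The log2 difference of H2-Aa was -0.18 (95% interval -0.37 to 0.01; limma unadjusted p = 0.056, adjusted p = 0.999), and -0.10 without the 4 narrow arrays. H2-Ab1 had a lowest, median and highest of 8.52, 8.68 and 8.94 in wild type and 7.98, 8.66 and 8.96 in the double knockout. The double-knockout median was close to that of wild type and replicate 5 alone was low. The log2 difference of H2-Ab1 was -0.11 (95% interval -0.40 to 0.18), and it was 0.02 without double-knockout replicate 5.

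H2-Eb1, the beta chain of I-E, had a lowest, median and highest of 8.37, 8.45 and 8.61 in wild type and 8.30, 8.36 and 8.58 in the double knockout. The 3 lowest double-knockout arrays were replicates 1, 2 and 4, not the narrow ones, and its difference of -0.07 (95% interval -0.19 to 0.05) was -0.12 without the 4 narrow arrays (limma unadjusted p = 0.016, adjusted p = 0.64). H2-Ea, whose alpha chain partners it and which is listed as a transcribed pseudogene in GRCm38.p6, measured 5.30 to 5.50 and 5.27 to 5.42. H2-Eb2 differed by -0.03. H2-DMa and the probe set of H2-DMb1 and H2-DMb2, which load peptide onto class II, differed by -0.05 and -0.04, and H2-Oa and H2-Ob, which restrain that loading, by -0.0029 and -0.02. The signs of H2-DMa (0.0024), H2-Oa (0.03) and H2-Ob (0.04) turned without the 4 narrow arrays. Of these class II molecules other than H2-Aa, H2-Ab1 and H2-Eb1, none differed by more than 0.07 over the 12 arrays.

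Cd74 showed the second-smallest p of the 64 members and the largest difference among the class II genes. Its log2 values had a lowest, median and highest of 7.96, 8.32 and 8.46 in wild type and 7.85, 7.95 and 8.17 in the double knockout. In 4 of 6 double-knockout arrays Cd74 lay below all of wild type, and the overlap came from wild-type replicate 3 at 7.96. The means were 8.27 ± 0.18 and 7.97 ± 0.11 (SD, n = 6 each), which differ by -0.30 on the log2 scale (standard error 0.08), that is 1.23-fold (limma unadjusted p = 0.0022, adjusted p = 0.999). Without wild-type replicate 3 the difference was -0.36 (limma adjusted p = 0.35), and without the 4 narrow arrays -0.20 (limma unadjusted p = 0.074). Ciita, the regulator of class II genes, had a lowest, median and highest of 6.68, 6.79 and 6.82 in wild type and 6.73, 6.83 and 6.99 in the double knockout. Its sign was opposite to that of Cd74, with a log2 difference of 0.08 (95% interval -0.03 to 0.18; limma adjusted p = 0.999).

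Markers of the cells that carry class II were measured beside these values. The double-knockout mean was the lower for 14 of 16 B cell markers (median difference -0.21), 8 at an unadjusted limma p under 0.05 and 0 past the threshold. Over all probe sets 40.7% had the lower mean, and 1.13% were lower at that p. The array mean of the 16 is given next. Their array mean was 7.41 to 7.56 in wild type and 7.18 to 7.46 in the double knockout; Ikzf3, Pax5 and Pou2af1, regulators of B cell genes, had the smallest p, with differences of -0.33, -0.23 and -0.39 (limma adjusted p = 0.19, 0.25 and 0.29). Of the 16 markers 13 were lower without the 4 narrow arrays, with a median of -0.12. Double-knockout replicates 3, 5 and 6, all narrow arrays, had the lowest B cell means, at 7.18, 7.23 and 7.26. Replicates 1, 2 and 4 measured 7.39, 7.46 and 7.33. The lowest wild-type array of the B cell mean was replicate 3, which was also the lowest wild-type array of Cd74 and of H2-Aa. In the macrophage mean that array was low as well, at 9.54, next to 9.53 on wild-type replicate 6. Of 17 macrophage markers 10 were lower, with a median of -0.03 (6 of 17 without the 4 narrow arrays) and array means of 9.53 to 9.68 and 9.46 to 9.72. Of 13 dendritic cell markers 6 were lower, with a median of 0.01 and array means of 7.30 to 7.36 and 7.28 to 7.37. Of 12 T and NK cell markers 6 were lower, with a median of -0.0034. Array values have no true 0, so absence of a cell type cannot be read from them, and the part of B cell content in the class II values was not tested.

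**Figure D4:**
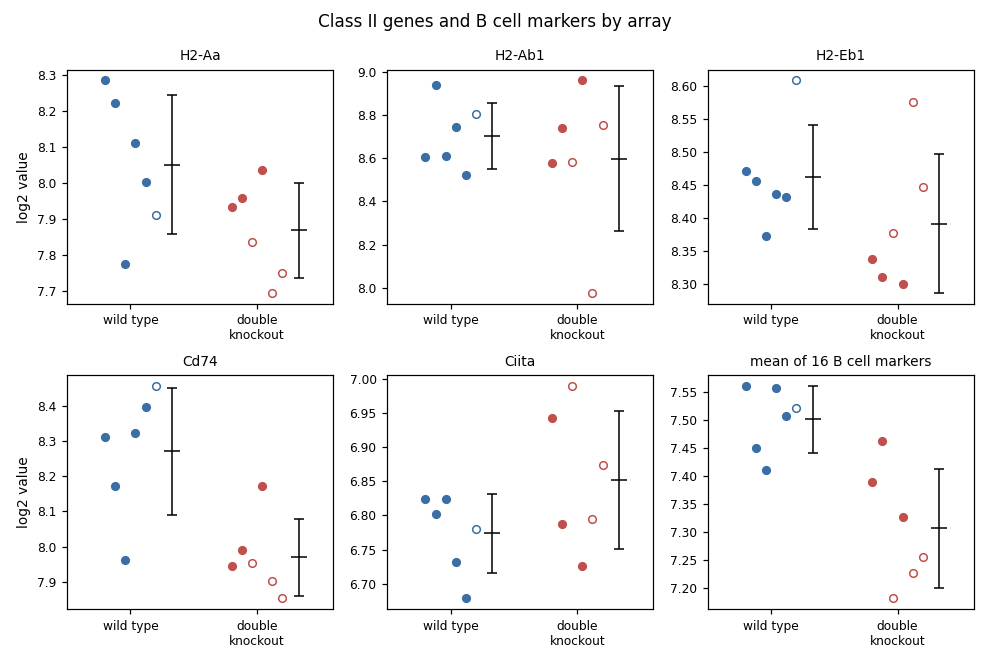
Each point is the log2 value on 1 array of H2-Aa, H2-Ab1, H2-Eb1, Cd74 or Ciita, or the mean of 16 B cell markers, for 6 wild-type and 6 double-knockout arrays, with the mean and SD as a bar; open circles are the 4 arrays of narrow spread. Cd74 and the B cell mean are both lower in most double-knockout arrays, and H2-Ab1 has a single low array at 7.98.

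The other genes of the pathway were examined as lists. Of 15 measured genes that make and fold class I peptides and chains, 12 had lower means, against 40.7% of all probe sets. Their median was -0.01, and 0 had an unadjusted limma p under 0.05 or passed the threshold. Among them Psmb8 and Psmb9, subunits of the immunoproteasome that Tap1 neighbours, differed by -0.0081 and -0.02, beside -0.15 for Tap1. Sec61a1, Calr and Pdia3, which serve protein entry and folding in the endoplasmic reticulum, had the smallest p of the list and differed by -0.06, -0.04 and -0.06. Of 13 genes of class II processing 4 were lower and 9 higher, with a median of 0.02; Marchf1, a ligase that removes class II from the surface, differed by 0.04 and the co-stimulator Cd86 by 0.06.

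Of 22 measured regulators of MHC genes 11 were lower and 11 higher, with a median of -0.0029 and 0 past the threshold. Irf8, a factor of myeloid and B cells, differed by -0.13 (limma unadjusted p = 0.014) and Stat2, a carrier of the interferon signal, by -0.17 (limma unadjusted p = 0.044), and Spi1, a myeloid and B cell factor, by -0.08; all 3 had a limma adjusted p of 0.999. Rfx5, Rfxap and Rfxank, which bind the X1 box, differed by 0.02, 0.04 and -0.02, and Nfya, Nfyb and Nfyc, which bind the Y box, by -0.0090, 0.06 and 0.0039. These Rfx and Nfy factors of the X1 and Y boxes thus each differed by 0.06 or less. Of the 22 regulators 8 were lower without the 4 narrow arrays. Of 9 measured class I-like genes outside the complex 5 were lower, with a median of -0.02, and 1 of 9 without the 4 narrow arrays. Cd1d1, which presents lipids, had the largest difference of these, -0.33 with a 95% interval of -0.75 to 0.10, and Mill2 and Procr differed by 0.11 and 0.05.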

How the data were processed

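Fetal liver RNA of 12 samples was measured on Affymetrix arrays, 1 array per sample. The authors deposited log2 values per probe set; per the submitters' processing notes these came from Affymetrix Expression Console, with version, summarisation, background correction and genome build not given in the sources used here. Values of 3.73 to 14.45 set the log base. Array medians were 7.55 to 7.61. A linear model from limma 3.58.1 (lmFit, eBayes; R 4.3.3) was fitted to all 28815 probe sets, double knockout minus wild type, 2-sided, with Benjamini-Hochberg adjustment over the table and a threshold of 0.05; the number of arrays limits the precision. The code was tested on simulated data. The platform table named 23385 probe sets, 21780 by 1 gene and 1605 by several; 5430 were unnamed. Of the 51 member symbols 50 were found by gene ID in GRCm38.p6, which gave gene types and chromosomes. For marker and pathway lists each gene was taken by its probe set of highest mean among those naming 1 gene.

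Members, lists and tests were chosen with earlier results of these data known. Values by group were given for members fixed by name (the classical chains, helpers and regulators), the 3 of smallest p and the 1 of largest difference in each class, and the 3 genes of smallest p of a list; other genes named were chosen after their values were seen. Alternatives were quantile normalization, median centring, a filter on dim probe sets, other sets of probe sets, a trended robust prior, weights per array, a block for the replicate number, the interquartile range as a covariate, leaving out each array, and, chosen after seeing the data, leaving out the 4 or the 3 arrays of smallest interquartile range, keeping only probe sets that name 1 gene, and counting Nlrc5 once. Promoter letters were searched with Python 3.11.15.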

Additional observations from a re-analysis of the deposited data

How the results depend on the processing

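No member probe set passed the threshold under any of 23 alternatives, in which the smallest limma adjusted p of a member ran from 0.23 to 0.9999 and the number lower at an unadjusted p under 0.05 from 4 to 11. With only probe sets above the median mean, the median log2 difference was -0.14 for class I heavy chains (-0.02 over all 27) and -0.30 for the class II helper and regulator, where Cd74 alone was left. With 1 probe set per gene, which cut Nlrc5 to 1 value and dropped the shared Tapbp probe sets, it was -0.067 for class I helpers, and with Nlrc5 alone cut to 1 value -0.027. Leaving out each array in turn, the medians ran from -0.041 to 0.0025 for class I heavy chains, -0.089 to -0.035 for class II molecules, -0.019 to 0.0061 for class I helpers and -0.14 to -0.091 for the class II helper and regulator.

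Signs turned without the 4 narrow arrays for 28 member probe sets, among them the H2-D1 probe set (0.025), Tap2 (0.016), B2m (0.0030), Nlrc5 (-0.072 in its probe set of highest mean) and H2-Ab1 (0.075). Without the 3 narrowest arrays they turned for 12, among them B2m (0.0082), Nlrc5 (-0.019) and H2-Ab1 (0.031). B2m turned with array weights (0.00037), and Nlrc5 with median centring (-0.0065) and with the interquartile range as a covariate (-0.053). Leaving out each array, they ran from -0.043 to 0.0063 for B2m, -0.035 to 0.052 for Nlrc5 and -0.18 to 0.019 for H2-Ab1. The cause was not tested, and the share of all probe sets whose sign turned was not counted. Same-numbered replicates of the genotypes did not pair (correlations of deviations over 0.1 in 3 of 6, and 1 of 6 samples matched its own number best). With the replicate number as a block 0 members passed the threshold and 9 were lower at an unadjusted p under 0.05. With 6 arrays a group, the median standard error of a member was 0.057.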
